A study of Homo sapiens with 4 samples.

Results

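NF-kB is a family of dimeric transcription factors, and the genes described here encode its 5 subunits (RELA, REL, RELB, NFKB1 and NFKB2), 3 inhibitors that bind the dimers (NFKBIA, NFKBIB and NFKBIE), the nuclear IkB-like cofactor BCL3, and TNFAIP3, the deubiquitinase A20. These 10 genes were chosen by name, each symbol was matched to a gene ID, and all 10 were present among the 61852 genes of the deposited tables and among the 15965 with counts high enough to test. The names were proposed with results of this comparison already known. The difference between the groups is therefore given for these 10 genes as a description, and the numbers of them called support nothing by themselves.

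The cells are H1299, a human line established from a non-small-cell lung carcinoma and lacking p53 of its own (p53-/-). Poly(A) RNA was sequenced from 2 libraries with wild-type p53 (p53WT) expressed in them and from 2 with the mutant CASM34, which the title of the series places among synonymous mutations found in cancer. All 4 libraries thus share the p53-/- background and a p53 put back into it. Culture was in RPMI 1640 with fetal bovine serum. The labels name no further treatment, no vector, and no separate cultures or clones, so the spread between libraries of a group may be technical. No library of H1299 cells without p53 was analysed here, and p53WT is the reference.

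In resting cells the IkB proteins hold NF-kB dimers in the cytoplasm. Signals from receptors such as that for TNF activate the IkB kinase complex, which marks IkB for destruction and frees the dimers to enter the nucleus. The precursors made from NFKB1 and NFKB2 also hold partner subunits until they are processed, and a separate arm of the pathway, driven by the kinase NIK (MAP3K14), processes the NFKB2 product p100 to p52, the partner of RELB. Several of these genes are themselves NF-kB targets: NFKBIA and TNFAIP3 are textbook negative feedback genes.

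Sequences before the RefSeq starts of the genes were searched for the motif that NF-kB dimers bind. Whether feedback uses any of the matches was not tested. RefSeq windows of 250 bases before the transcription start (GRCh38.p14) were at hand for 8 of the 10 genes, as 13 windows, since some genes have several starts. The 10-base kappaB consensus motif matched, on either strand, in 7 of the 13 windows, which belong to 6 genes, against 9.96% of 35116 such windows over all genes. The looser form GGGNNNNNCC, which contains the consensus, matched in 12 of the 13 and in 54.4% of all windows. The consensus motif of the p53 half-site matched in 0 of the 13 and in 5.57% of all windows. The shares over all windows were not matched for GC content, which ran from 48.4% to 80.8% in the 13 windows. The matches to the kappaB consensus are shown 5′ to 3′ on the strand of the gene. Matched bases are in capitals, with 4 flanking bases on each side. Every stretch was picked by the same motif, so their likeness follows from the search:
REL: ccgcGGGAAATTCCCctcc
NFKB1: cagtGGGAATTTCCagcc
NFKB2 at 107 before the start: tcatGGGAATTCCCCcctc
NFKB2 at 78 before the start: agaaGGGGCTTTCCcggc
NFKB2 at 176 before the start: caccGGGGCTTCCCggat
NFKB2 at 21 before the start: tttcGGGACTTTCCtaag
NFKBIA: gcttGGAAATTCCCcgag
NFKBIB: ggtgGGGAATTTCCCgcag
TNFAIP3: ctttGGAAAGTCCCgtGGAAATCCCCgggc

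The REL site lies at chr2:60881527-60881537, 47 to 37 bases before the RefSeq start. The NFKBIA site, at chr14:35404821-35404830 on the minus strand, begins 81 bases before the start and matches in the reverse orientation. TNFAIP3 holds 2 neighbouring matches at chr6:137867192-137867213, both in the reverse orientation. The 4 NFKB2 stretches come from 2 alternative starts. REL, NFKBIB and NFKB2 hold stretches that match on both strands. In the windows of RELA and BCL3 these letters were not found, which says only that they are not in those windows. A match is a description of the sequence and not a measured binding site. The full window of NFKBIA (chr14:35404750-35404999, minus strand) is given as the example from a feedback gene, with the consensus match in capitals:
NFKBIA upstream: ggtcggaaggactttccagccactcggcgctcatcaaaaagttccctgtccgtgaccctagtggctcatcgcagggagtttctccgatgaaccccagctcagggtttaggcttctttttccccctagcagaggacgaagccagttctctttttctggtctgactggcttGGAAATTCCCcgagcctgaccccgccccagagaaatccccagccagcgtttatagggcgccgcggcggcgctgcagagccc

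Counts totalled between 18086983 and 26906095 per library, and between 21595 and 22504 genes had at least 1 count. The labelled cell type was checked on fixed marker lists. The keratin genes KRT8 and KRT18 and the intermediate filament gene VIM were abundant (at least 420, 1091 and 3225 TPM, a length-scaled level, in every library). EPCAM and CDH1, which define many epithelial lines, reached at most 0.30 and 0.23 TPM. Of the 11 epithelial and lung carcinoma line markers on the list, 6 were too low to test, and these reached at most 0.83 TPM. Of 10 leukocyte markers, 4 had no count in any library, among them PTPRC, the gene for the pan-leukocyte protein CD45. A count of 0 allows up to 3 counts, or 0.112 to 0.164 CPM (counts scaled to a common library size, with TMM factors) depending on the library, for counting error only. The leukocyte list summed to between 88.2 and 95.1 TPM, nearly all of it CD68, a lysosomal gene, at 87.1 to 94.5 TPM, and no other member exceeded 0.68 TPM. Markers of fibroblasts and endothelium summed to 1.45 and 5.73 TPM in p53WT and 0.870 and 2.34 TPM in CASM34.

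The 10 genes covered a wide range of levels, an order that the choice of genes did not use. On the TPM scale, which is per transcript length and so allows genes to be compared, NFKB2 was the highest, at 116 and 102 TPM in p53WT and 123 and 115 TPM in CASM34. Its mean of 114 ± 8.76 TPM (SD, n = 4 libraries) stood at the 91.6th percentile of tested genes. NFKBIB, the gene for IkB-beta, followed at 69.8 ± 3.93 TPM, and RELA, RELB and NFKBIA lay together at 59.8 ± 3.79, 59.4 ± 4.17 and 57.5 ± 3.39 TPM (SD, n = 4). NFKBIB was above RELA in each of the 4 libraries, although their ranges across libraries overlapped. RELA was above RELB in the 2 p53WT libraries and below it in both CASM34 libraries. RELB was above NFKBIA in 3 libraries, so the order of RELA, RELB and NFKBIA over the 4 libraries is not resolved. NFKBIE, the gene for IkB-epsilon, at 43.9 ± 4.51 TPM, NFKB1 at 35.9 ± 2.87 TPM and BCL3 at 29.1 ± 3.63 TPM came next (SD, n = 4). TNFAIP3 (5.15 ± 0.878 TPM) and REL (1.47 ± 0.318 TPM) were the lowest, at the 36.1th and 18th percentiles. Of the 9 neighbouring pairs in this order, 6 had ranges over the 4 libraries that did not overlap, and 5 with FPKM.

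**Figure D1:**
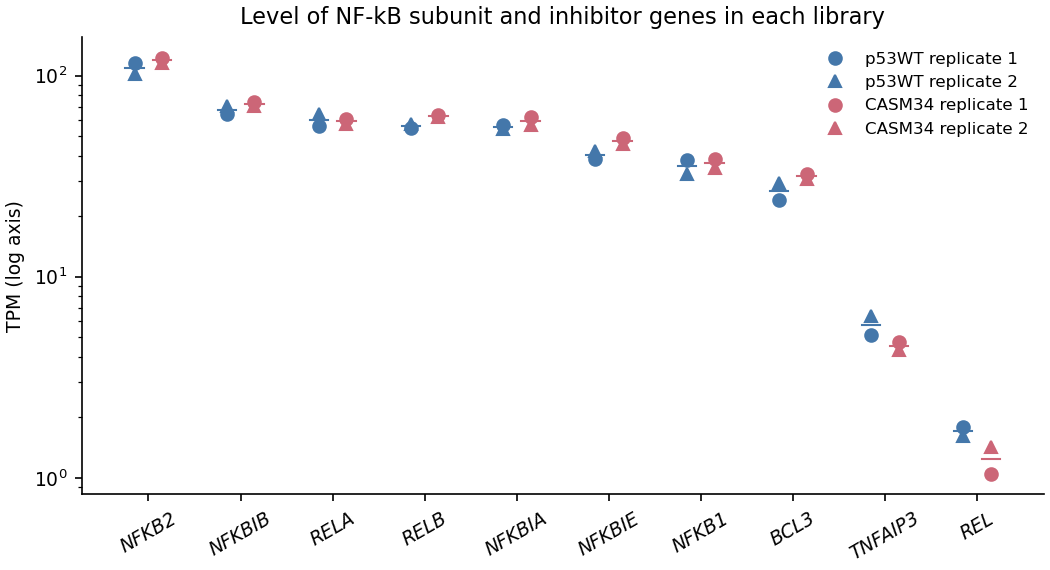
TPM (log axis) of the 10 genes in each library, ordered by mean; blue is p53WT, red is CASM34, circles are replicate 1, triangles replicate 2 and short lines group means. NFKB2 lies above 100 TPM and REL below 2 TPM in every library. Differences between the groups are small beside the range of levels between genes. On the log axis the group means are furthest apart for REL, at 1.79 and 1.62 TPM in p53WT and 1.05 and 1.42 TPM in CASM34.

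By this measure H1299 cells in both groups had mostly NFKB2, RELA and RELB transcripts among the subunits. NFKB2 made up 39.5% to 43.4% of the summed subunit TPM across libraries, RELA 21.1% to 25%, RELB 20.5% to 23.0%, NFKB1 12.6% to 14.3% and REL, the c-Rel gene best known from lymphocytes, 0.366% to 0.672%. The summed TPM of NFKBIA, NFKBIB and NFKBIE was 0.60 and 0.647 times the summed subunit TPM in p53WT, and 0.646 and 0.640 times in CASM34. The CASM34 values fall between those of the p53WT libraries. The exact two-sided permutation test gave p = 1, where 2 libraries against 2 cannot give less than 0.333. It could therefore not have called a difference, and nothing is read from it. The difference in means, 0.0198, was -0.0038 without p53WT replicate 1 and 0.0434 without p53WT replicate 2. With NFKB1 and NFKB2 left out of the subunits, the ratios were 1.42 and 1.35 in p53WT and 1.47 and 1.43 in CASM34, and the groups did not overlap.

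Across all genes tested with edgeR, 1.95% were called different between CASM34 and p53WT at an adjusted p under 0.05 (1.61% higher and 0.345% lower in CASM34). Of the 10 genes, 1 was called higher, BCL3, 1 was called lower, REL, and 8 were not called. DESeq2 called 0 of the 10, and 0.745% of the 26177 genes with any count. Those include genes to which DESeq2 gave no adjusted p, so its share is not comparable with shares of the 15965 tested genes. The limma-voom fit called BCL3 and REL (2% of its genes). At an unadjusted edgeR p under 0.05 there were 5 of the 10 against 17.1% of all tested genes. The groups did not overlap in CPM for 7 of the 10, 6 higher and 1 lower in CASM34, where 47.9% of all tested genes did not overlap, 24.5% higher and 23.4% lower. The fitted log2 fold change, CASM34 over p53WT throughout, was above 0 for 8 of the 10 and for 49.8% of all tested genes. Its median was 0.07 (0.04 without CASM34 replicate 1) for the 10 genes, beside 0.00 for all tested genes. These are whole-culture measurements, so fewer cells with an RNA and less RNA per cell cannot be told apart.

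REL (deposited ID ENSG00000162924.16, GENCODE 29 position GRCh38 chromosome 2, 60881521 to 60931610, plus strand) had the largest difference of the 10. REL gave 13.9 and 13.2 CPM in the p53WT libraries and 8.01 and 10.1 CPM in the CASM34 libraries. Both CASM34 values were below both p53WT values, and the CASM34 libraries differed from each other more than the p53WT libraries did. The group means were 13.6 ± 0.556 and 9.05 ± 1.46 CPM (SD, n = 2 each), and the fitted log2 fold change was -0.60 (SE 0.13). REL was not called without p53WT replicate 1 (-0.56), without p53WT replicate 2 (-0.64) or without CASM34 replicate 1 (-0.43), and it was called without CASM34 replicate 2 (-0.76).

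The REL count depends on how reads were divided between overlapping gene models. A second RNA, ENSG00000267520.2, annotated as a 3′ overlapping noncoding RNA of 5702 bases (chromosome 2, 60925909 to 60931610, plus strand), lies wholly inside the last exon of REL (exon 11 of ENST00000295025.12, 60921763 to 60931610, 9848 bases). Both genes are on the same strand and end at the same base. The estimated counts of both were fractional in all 4 libraries, while those of the other 9 genes were whole. The overlapping RNA was given 12.31 and 18.35 counts in p53WT and 67.74 and 39.89 in CASM34. As a share of the reads of the pair, this came to 3.91% and 5.13% in p53WT against 24% and 17.8% in CASM34. Its fitted log2 fold change was 1.91 (SE 0.32, edgeR adjusted p = 0.0111). It did not pass without p53WT replicate 1 (1.76, edgeR adjusted p = 0.0803), with the effective length offset (1.91, edgeR adjusted p = 0.209) or in limma on log2(TPM + 1) and log2(TPM + 0.1) (0.40 and 1.33, adjusted p = 0.349 and 0.345), and DESeq2 gave it no adjusted p. It was picked with its values in view.

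With the reads of the pair added together, the difference in REL shrank and was no longer called, in a fit that called 1.94% of all genes. Together they gave 14.5 and 13.9 CPM in p53WT against 10.6 and 12.3 CPM in CASM34, with a log2 fold change of -0.32 (SE 0.11) in place of -0.60. The CASM34 libraries still lay below both p53WT libraries. Neither the reads nor the isoform estimates were analysed here, so which of the 2 RNAs the reads in the shared exon came from was not tested.

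**Figure D2:**
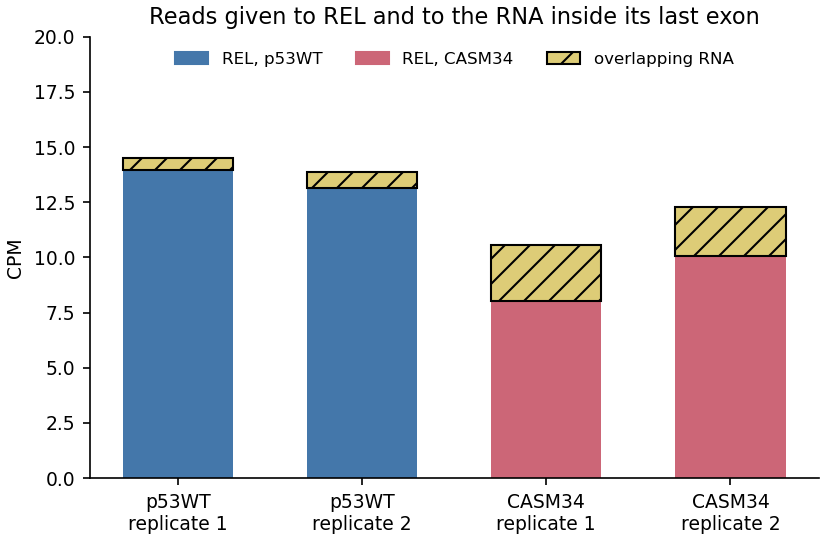
CPM of REL (blue in p53WT, red in CASM34) with the CPM of the overlapping noncoding RNA stacked on top (hatched), 1 bar per library. The hatched part is larger in both CASM34 libraries. The stacked totals are 14.5 and 13.9 CPM in p53WT and 10.6 and 12.3 CPM in CASM34. The REL parts alone are 13.9 and 13.2 CPM in p53WT and 8.01 and 10.1 CPM in CASM34.

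The other subunit genes differed little. RELB (ENSG00000104856.15, chromosome 19, 45001430 to 45038198, plus strand), which pairs with p52, stood at 84.0 and 88.8 CPM in p53WT and 98.9 and 96.3 CPM in CASM34. The groups did not overlap, and the log2 fold change was 0.18 (SE 0.05), not called. NFKB2 (ENSG00000077150.21, chromosome 10, 102394110 to 102402529, plus strand), its partner gene, stood at 220 and 216 CPM in p53WT and 244 and 230 CPM in CASM34. This was a log2 fold change of 0.12 (SE 0.05), again without overlap and not called. RELA (ENSG00000173039.20, chromosome 11, 65653596 to 65663094, minus strand), the gene for the p65 subunit of the canonical dimer, stood at 95.8 and 98.9 CPM in p53WT and 105 and 99.0 CPM in CASM34. Its log2 fold change was 0.07 (SE 0.05), not called, and it shares a few bases at its start with RELA-DT on the plus strand. NFKB1 (ENSG00000109320.14, chromosome 4, 102501329 to 102617302, plus strand), which encodes p105 and p50, stood at 96.4 and 85.3 CPM in p53WT and at 93.6 and 89.5 CPM in CASM34. Its CASM34 values lay between the p53WT values, with a log2 fold change of 0.02 (SE 0.06).

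Among the inhibitors, BCL3 (ENSG00000069399.15, chromosome 19, 44747705 to 44760044, plus strand) was the gene with the larger difference. BCL3 is an atypical IkB protein that binds p50 and p52 dimers in the nucleus and can act as a coactivator. It stood at 26.3 and 29.1 CPM in p53WT and 35.1 and 34.4 CPM in CASM34, with means of 27.7 ± 1.96 and 34.8 ± 0.503 CPM (SD, n = 2 each), and a fitted log2 fold change of 0.33 (SE 0.07). Both CASM34 libraries were above both p53WT libraries. BCL3 was not called without p53WT replicate 1 (0.25) or without p53WT replicate 2 (0.40), and it was called without either CASM34 library (0.31 and 0.34).

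The 3 classical inhibitor genes were slightly higher in CASM34, and none was called. NFKBIE (ENSG00000146232.17, chromosome 6, 44258166 to 44265788, minus strand) stood at 56.7 and 60.6 CPM in p53WT and 66.7 and 64.7 CPM in CASM34, a log2 fold change of 0.16 (SE 0.06). NFKBIA (ENSG00000100906.12, chromosome 14, 35401511 to 35404749, minus strand), the IkB-alpha gene, stood at 55.7 and 54.9 CPM in p53WT and 58.8 and 56.7 CPM in CASM34, a log2 fold change of 0.06 (SE 0.05). NFKBIB (ENSG00000104825.17, chromosome 19, 38899700 to 38908893, plus strand) stood at 65.5 and 71.1 CPM in p53WT and 73.8 and 70.7 CPM in CASM34. Its groups overlapped, with a log2 fold change of 0.08 (SE 0.06). NFKBIB shares 163 bases at its start with SIRT2 on the minus strand, and the strand setting of the counting is not given in the sources used here, so reads in that stretch could belong to either gene.

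TNFAIP3 (ENSG00000118503.17, chromosome 6, 137867188 to 137883312, plus strand), whose product A20 removes ubiquitin chains from the signalling complexes upstream of IkB kinase, gave 18.5 and 17.1 CPM in p53WT and 17.3 and 15.8 CPM in CASM34. The groups overlapped, and the log2 fold change was -0.10 (SE 0.10). On the TPM scale the same gene stood at 5.15 and 6.37 in p53WT and 4.74 and 4.34 in CASM34, without overlap. The effective length that RSEM estimated for TNFAIP3 was 3176 bases in p53WT replicate 2 and between 4298 and 4315 bases in the other libraries, and with an offset for effective length the log2 fold change was -0.33 (SE 0.15), not called. TNFAIP3 overlaps WAKMAR2 on the minus strand, which had at most 7 counts in a library.

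The differences of the 10 genes were ordered almost as the GC content of their transcripts. BCL3 and RELB, with transcripts of 65.7% and 65.0% GC, had the highest log2 fold changes, and REL, at 39.5% GC, the lowest. Over the 10 genes the Spearman correlation between GC content and log2 fold change was 0.94, and over the 15652 tested genes with a GC value it was 0.47. The genes share the same 4 libraries, so these values describe them and carry no test. A library's log2 level changed with GC content by -0.0585 and -0.0549 per 10 percentage points in p53WT and by 0.0735 and 0.0399 in CASM34, so that base composition moved with the groups.

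With an offset for GC content and length fitted in each library, REL kept its value and BCL3 did not. REL had a log2 fold change of -0.57 (SE 0.12) and BCL3 of 0.07 (SE 0.07), and 0 of the 10 genes were called, where 0.351% of all genes were. RELB, NFKB2, RELA, NFKBIA, NFKBIB and NFKBIE turned to -0.08, -0.06, -0.09, -0.01, -0.11 and -0.01. The median over the 10 genes was -0.07, beside -0.02 for all genes in that fit. The Spearman correlation with GC content over the 10 genes was then 0.33. The offset was fitted to these same libraries, whose change with GC content differed by group. It takes out any group difference that follows GC content, whether technical or not, and these cannot be told apart here.

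**Figure D3:**
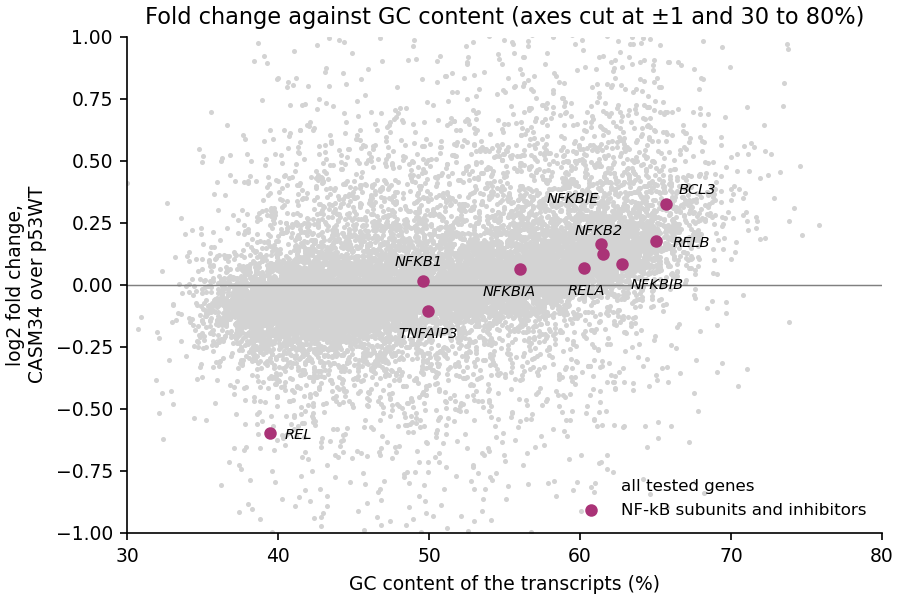
Log2 fold change (CASM34 over p53WT) against the GC content of the transcripts in percent; grey points are all tested genes within the axis limits and purple points the 10 NF-kB genes. BCL3 and RELB at 65.7% and 65.0% GC sit at the upper right and REL at 39.5% GC at the lower left.

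**Figure D4:**
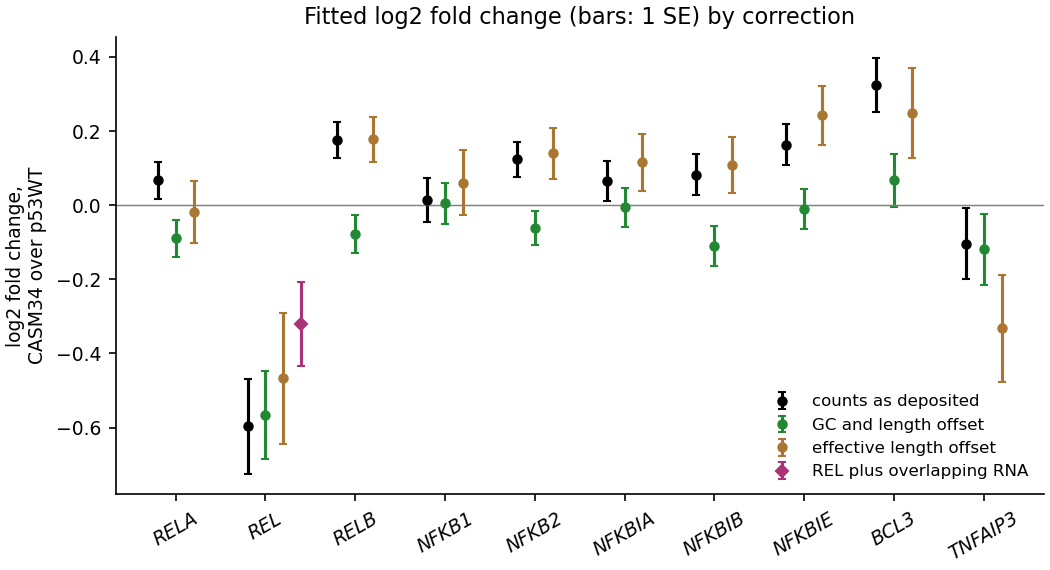
Fitted log2 fold change with 1 SE for each of the 10 genes from the counts as deposited (black), with the GC and length offset (green) and with the effective length offset (brown); the purple diamond is REL summed with the overlapping RNA. REL lies below 0 in all 4 fits, at -0.60, -0.57, -0.47 and -0.32, and BCL3 moves from 0.33 to 0.07 with the GC and length offset.

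The rest of the pathway was examined on 6 lists of 117 genes, of which 93 were tested. By edgeR 0 rose and 0 fell, against 1.95% called among all tested genes. DESeq2 and limma-voom also called 0, and 18 of the 93 had an unadjusted edgeR p under 0.05, beside 17.1% of all tested genes. The median log2 fold change of the 93 was 0.05, and it was -0.02 with the GC and length offset. Of the 93, 58 lay above and 35 below 0, beside 49.8% of all tested genes above 0. Without CASM34 replicate 2, the log2 fold changes of TNFRSF12A, RBCK1, CXCL2, LIF and MMP9 ran from 0.20 to 0.38. These genes were picked by their values in that fit.

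The ligand genes were nearly silent in H1299. None of the 10 was high enough to test, and 4 had no count in any library. TNF had no count in p53WT and 2 and 1 counts in CASM34, which is under the limit that a count of 0 allows. LTB, the lymphotoxin-beta gene, was the highest, at 0.09 and 0.31 TPM in p53WT and 0.61 and 0.75 TPM in CASM34. These values rest on 1 and 3 counts in p53WT and 6 and 5 counts in CASM34, too few to compare the groups. The effective length of LTB was 588 bases in p53WT replicate 1 and between 435 and 439 bases in the other libraries.

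Receptor genes were present, and none of the 11 tested of 14 was called (median log2 fold change -0.03). TNFRSF12A, the receptor for TWEAK, stood at 369 and 384 TPM in p53WT and 434 and 409 TPM in CASM34 (0.16, SE 0.05, edgeR adjusted p = 0.114). TNFRSF1A, the main TNF receptor, was level at 172 and 162 TPM in p53WT and 162 and 169 TPM in CASM34, and its log2 fold change was 0.00 (SE 0.05, edgeR adjusted p = 0.989). TNFRSF11A, the RANK gene, had the largest among receptors of at least 1 CPM, -0.27 (SE 0.17, edgeR adjusted p = 0.440).

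All 27 adaptor and kinase genes were tested, and none was called (median 0.03). IRAK1, a kinase of the interleukin-1 receptor arm, was the highest, at 275 and 285 TPM in p53WT and 279 and 259 TPM in CASM34 (0.07, SE 0.05, edgeR adjusted p = 0.479). RBCK1, the HOIL-1 subunit of the linear ubiquitin ligase, came at 0.17 (SE 0.06, edgeR adjusted p = 0.154). IKBKE, an IkB kinase relative, had 0.35 (SE 0.18, edgeR adjusted p = 0.346) at 4.10 and 4.45 CPM in p53WT and 4.91 and 6.08 CPM in CASM34.

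Among 16 further inhibitors of the pathway, with a median log2 fold change of 0.06, none was called. PDLIM2, which directs nuclear p65 to degradation, came at 0.18 (SE 0.06, edgeR adjusted p = 0.173), and its counts were fractional in every library. TNIP2, an A20-binding protein gene, had 0.12 (SE 0.05, edgeR adjusted p = 0.198), and NLRC5 had 0.34 (SE 0.23, edgeR adjusted p = 0.491). Of 12 coactivators and corepressors none was called (median 0.00). HDAC2 and HDAC1, deacetylases, had log2 fold changes of -0.12 and -0.08, and the deacetylase SIRT1 had -0.17 (edgeR adjusted p = 0.177, 0.373 and 0.208).

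Of 38 target genes, 27 were tested and none was called, with 23 above and 4 below 0 and a median of 0.07. Of all tested genes, 49.8% lay above 0. PLAU, the urokinase gene, was the highest, at 239 and 238 TPM in p53WT and 248 and 241 TPM in CASM34, and its log2 fold change was 0.03 (SE 0.04, edgeR adjusted p = 0.764); its counts were fractional in every library. CXCL2, a neutrophil chemokine gene, stood at 98.6 and 100 TPM in p53WT and 115 and 103 TPM in CASM34 (0.17, SE 0.06, edgeR adjusted p = 0.144). CCL5 had the largest log2 fold change among targets of at least 1 CPM, 0.55 (SE 0.36, edgeR adjusted p = 0.473), at 1.10 and 0.852 CPM in p53WT and 1.24 and 1.64 CPM in CASM34. The inflammatory cytokine gene IL6 had no count in any library. With the GC and length offset 14 of the 27 lay above 0, and the median was 0.02.

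**Figure D5:**
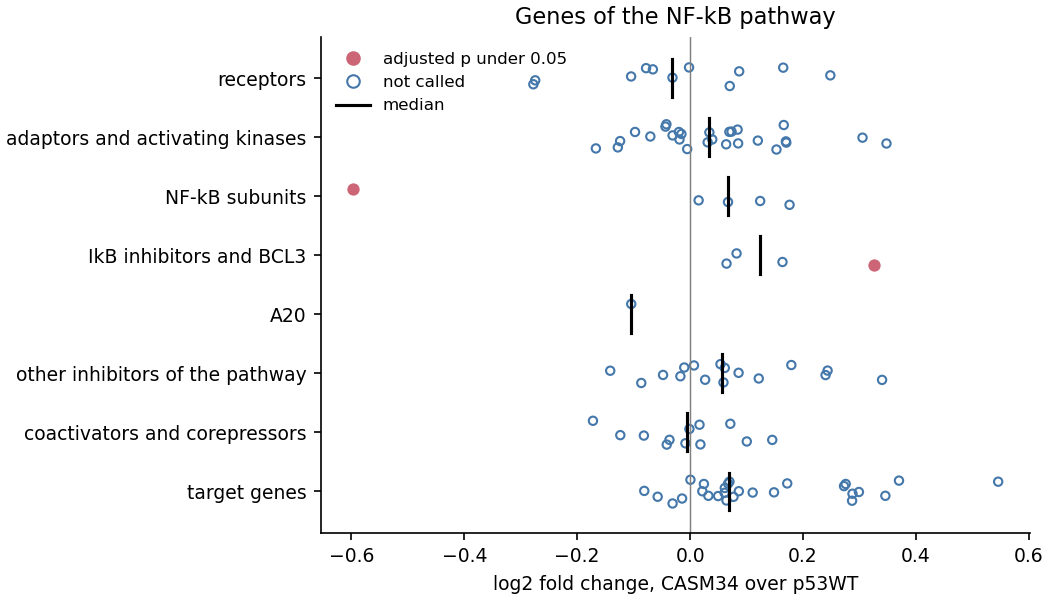
Log2 fold change (CASM34 over p53WT) of each tested gene, by list; open circles did not pass an adjusted p of 0.05, filled red circles did, and black lines are medians. REL and BCL3 are the filled points, at -0.60 and 0.33, and all other genes are open.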

How the data were processed

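Poly(A) RNA of 4 H1299 libraries was sequenced, 2 per group by the labels. Trim Galore, STAR, RSEM and GRCh38 were used, per the submitters' processing notes; the sources used here give no versions, annotation release or strand setting. The deposited expected counts, per the file headers, are RSEM estimates that share reads among gene models (8.63% to 9.26% of genes had counts not whole within 0.001). They were rounded. The deposited TPM and FPKM, per the file headers, are scaled by effective length, FPKM serving only as an alternative. Effective lengths are RSEM's own, per the file headers.

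Genes were named by ID for 61757 of 61852, with positions from GENCODE 29 (GRCh38). The deposited IDs of the 10 NF-kB genes carry higher version numbers than GENCODE 29 gives them. The gene models that were counted may therefore differ from the positions and GC content given here. GC content was taken over GENCODE 29 transcripts, for 98.0% of tested genes.

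Groups were compared with edgeR 4.0.16 in R 4.3.3 (quasi-likelihood F test, TMM, filterByExpr at its minimum of 10 counts, a model with group alone, Benjamini-Hochberg adjustment over 15965 genes). 45887 genes were too low. SE is the absolute log2 fold change over the square root of F. CPM uses the TMM factors. Counts within a group differed by more than counting error (chi-square per degree of freedom 3.90 and 3.94). Alternatives were other scalings and filters, DESeq2 1.42.0, limma 3.58.1 (voom, and log2(TPM + 1) or log2(TPM + 0.1)), offsets for effective length or for GC content and length (natural splines with 5 degrees of freedom), a replicate block, and each library left out. Adding the overlapping RNA to REL was chosen after seeing the data. The genes and lists were chosen with earlier results of these data known. Beside the 10 genes, the text names, per list, up to 6 genes that passed, the 2 with the highest mean TPM and the 1 of at least 1 CPM with the largest absolute log2 fold change; other genes named were chosen after their values were seen. The test was checked on simulated data. SOD2 had no matching row. The values of 1 pathway gene are not reported here. Promoter sequences are RefSeq's (GRCh38.p14).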

Additional observations from a re-analysis of the deposited data

How the results depend on the processing

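Of the 10 NF-kB genes, 2 were called from the counts as deposited. With median-of-ratios or upper-quartile scaling, no filter, a mean CPM of at least 1 or limma-voom the count stayed within 1.5 times of that. It was 0 with library-total scaling, DESeq2, limma on log2(TPM + 1) or on log2(TPM + 0.1), the effective length offset, and the GC and length offset. It was 1 with the overlapping RNA added to REL, and between 0 and 2 with a library left out. Over all genes, 312 were called, 777 with no filter, 195 with DESeq2, 0 in either limma fit on TPM, 5 with the effective length offset, 55 with the GC and length offset, and 109 to 919 with a library left out. The replicate numbers in the labels do not state a pairing, and with 2 pairs the differences between numbers correlated at 0.07 between groups; with a replicate block 1159 genes, 3 of the 10 and 7 of the pathway genes were called. The pathway count was otherwise 0, or 0 to 6 with a library left out.

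The median log2 fold change of the 10 genes was 0.075, 0.11 with the effective length offset, -0.069 with the GC and length offset, and 0.042 (without CASM34 replicate 1) to 0.11 with a library left out. The difference between groups in the inhibitor to subunit ratio was 0.0198, 0.0684 without NFKB1 and NFKB2, and -0.0038 to 0.0434 with a library left out, turning below 0 without p53WT replicate 1. Signs of single genes turned as follows. RELA lay at -0.024 in both limma fits and -0.018 with the effective length offset, and NFKB1 between -0.071 (without p53WT replicate 2) and 0.098 with a library left out. With the GC and length offset RELA lay at -0.090, RELB at -0.078, NFKB2 at -0.061, NFKBIA at -0.0055, NFKBIB at -0.11, NFKBIE at -0.010, TNFRSF12A at -0.028, IRAK1 at -0.16, RBCK1 at -0.041, TNIP2 at -0.045 and PLAU at -0.024. IRAK1 lay at -0.060 in both limma fits and -0.050 with the effective length offset. TNFRSF1A lay at 0.0026 with library-total scaling, 0.00085 with a mean CPM of at least 1, and between -0.029 and 0.025 with a library left out. Apart from fewer samples or genes, the cause of these changes was not tested. REL had 184 to 340 counts a library, the fewest of the 10 genes.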
